A study of Homo sapiens with 6 samples.

Results

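The genes described here encode the nuclear-encoded part of the mitochondrial respiratory chain, and were taken by symbol from the raw count table: symbols starting with NDUF, UQCR or ATP5, symbols of the form COX followed by a digit from 4 to 8 and a letter, the 4 SDH genes, *CYC1* and *CYCS*. The rule found 93 of the 15924 genes listed, and 90 of them had enough counts to be tested, among 13188 genes tested in all. The 3 that did not, *COX6B2*, *ATP5EP2* and *ATP5L2*, had between 0 and 7 counts in each library. By function, 80 of the 93 encode subunits or cytochrome c, 7 are complex I assembly factors and 6 are no subunit despite their symbol (*ATP5S*, *ATP5SL*, *UQCRHL*, *ATP5EP2*, *ATP5L2* and *NDUFB2-AS1*). The rule used no measured value. The cells were WPMY-1, an immortalized human prostate stromal line of fibroblast and myofibroblast character, so that all 6 libraries stand for 1 line. The 3 lactate libraries came from cells given 24 mM lactate for 48 h, and the 3 control libraries from cells given none. The study used lactate to model what tumor cells release into the stroma. Its methods give the treatment as lactic acid brought to a mildly acidic pH in medium without bicarbonate, and the pH of the control medium is not given, so that lactate and acidity cannot be told apart here.

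The respiratory chain passes electrons through the inner mitochondrial membrane. Complex I takes them from NADH and complex II from succinate, coenzyme Q carries them to complex III, cytochrome c carries them to complex IV, and complex IV passes them to oxygen. Complexes I, III and IV pump protons as they do so, and complex V, the ATP synthase, uses the proton gradient to make ATP. Lactate that enters a cell is turned into pyruvate by lactate dehydrogenase with production of NADH, which is the substrate of complex I. Complexes I, III, IV and V also hold subunits encoded in mitochondrial DNA. The count table had 0 rows for these, so that the nuclear-encoded side alone was measured.

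The lactate libraries held 20392320, 23395292 and 24055634 counts, against 46505372, 20238653 and 24236650 counts in the control libraries. Replicate 1 of each group stood apart from the other 4 libraries. Within the groups, the chi-square of the counts per degree of freedom was 59.4 to 117 for pairs with a replicate 1 and 7.13 to 10.4 for the other pairs. No pair came near 1, which is the value for copies of 1 library. All 10 stromal markers checked were present, among them *VIM* with 52355 to 67023 counts in the lactate libraries and 61029 to 124121 in the control libraries. *EPCAM* (0 to 14 counts a library over all 6), *CDH1* (1 to 6), *PTPRC* (0 to 12) and *CD3E* (0 to 3) were at or near 0, whereas the keratin *KRT18* had 17595 counts or more in every library.

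In the counts as deposited from all 6 libraries, none of the 90 tested genes rose and 1 fell, *NDUFA5*, whereas 9.43% of all genes tested passed the same threshold, 5.29% higher and 4.14% lower (adjusted p below 0.05, edgeR). These counts depended on the replicate 1 libraries: without control replicate 1, 4 genes rose and 4 fell (23.1% of all genes called), and without both replicate 1 libraries 17 rose and 13 fell (47.4%). Without control replicate 1, those that rose were *NDUFV1*, *CYC1*, *NDUFA4L2* and *NDUFAF3*. Those that fell were *NDUFA5*, *SDHD*, *ATP5F1* and *NDUFAF4*. In bulk RNA, fewer cells of a kind and less RNA per cell cannot be told apart. At an unadjusted p below 0.05 there were 11 of 90 genes, 5 higher and 6 lower, against 27.8% of all genes. The lactate and control libraries did not overlap in 9 genes (10.0%), 5 higher and 4 lower, against 32.6% of all genes, 17.3% higher and 15.3% lower. The fold changes nevertheless leaned to one side: 67 of the 90 were above 0, against 48.6% of all genes tested. The median log2 fold change was 0.15 over the 90 genes, against -0.02 over all genes. By complex, the median log2 fold change was 0.30 in complex IV, 0.29 in the complex I core, 0.20 in complex III, 0.16 in complex II, 0.11 in the complex I accessory subunits, 0.05 in the complex I assembly factors and 0.03 in complex V. Without lactate replicate 1 the median over the 90 genes was -0.03.

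**Figure D1:**
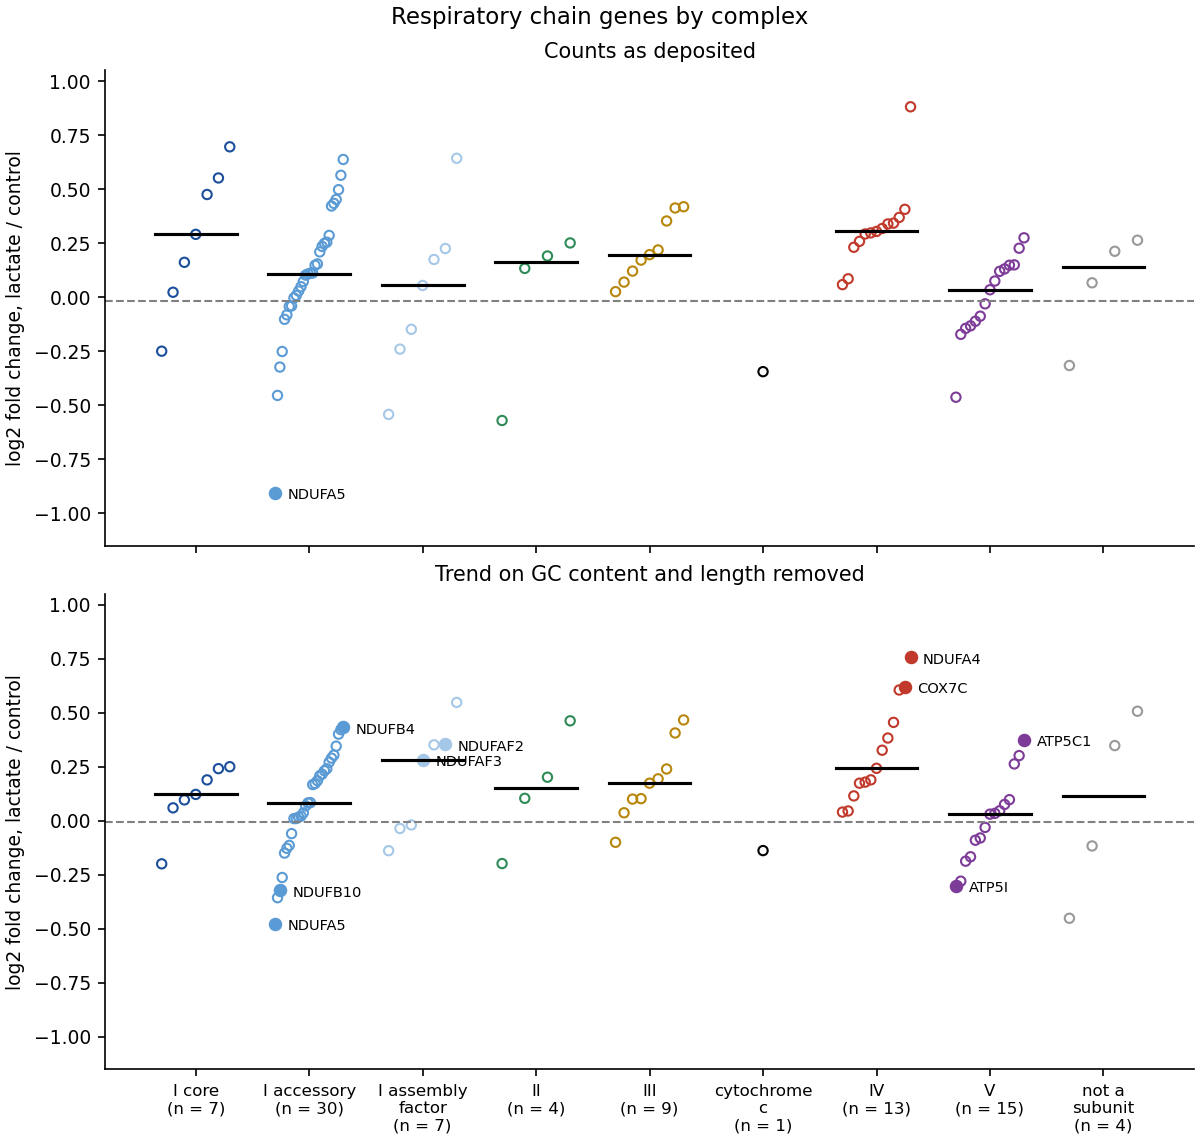
The log2 fold change of lactate over control is plotted for each tested gene (circle) by complex, from the counts as deposited (upper panel) and after correction for GC content and length (lower panel). Filled and named circles passed the adjusted p threshold of 0.05, black bars are class medians and the dashed line is the median of all genes tested. All 13 complex IV genes lie above 0 in both panels, and *NDUFA5* is the 1 filled circle of the upper panel.

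The fold change of a gene went with the GC content of its transcript, in these genes as in all genes. In 5 equal groups of all genes ordered by GC content, the median log2 fold change was -0.37, -0.22, 0.01, 0.16 and 0.31 from the lowest to the highest GC content. The respiratory chain genes in the same groups (10, 22, 24, 20 and 14 genes) had medians of -0.05, 0.04, 0.12, 0.26 and 0.43, each above the median of all genes with like GC content. Across genes, Spearman's rho of fold change with GC content was 0.58 over the 90 genes and 0.53 over 12798 genes; genes share their libraries, so that these values describe the 6 libraries and carry no test. The trend was present between single libraries too. The slope of log2 level on GC content, per 10 percentage points, was 0.35, 0.01 and 0.09 in lactate replicates 1, 2 and 3, against 0.13, -0.22 and -0.35 in control replicates 1, 2 and 3. The groups therefore overlapped in slope, and the 2 libraries that stood apart had the steepest rise of their group. What sets the slope was not tested.

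The coding starts of 8 genes, chosen after their values were seen, are printed as examples. GC-rich transcripts off the trend, such as *NDUFB10* (59.7% GC, log2 fold change -0.04), are not among them. Each run gives the first 90 coding bases in GENCODE release 29 (GRCh38), 5′ to 3′ on the coding strand, with G and C in capitals. *NDUFS7* (chr19:1383527-1395589, plus strand), *NDUFAF3* (chr3:49020459-49023495, plus strand) and *NDUFB7* (chr19:14566078-14572062, minus strand) had transcripts of 66.5%, 64% and 65.0% GC and log2 fold changes of 0.70, 0.64 and 0.42. The printed stretches had 70.0%, 71.1% and 71.1% GC.
NDUFS7: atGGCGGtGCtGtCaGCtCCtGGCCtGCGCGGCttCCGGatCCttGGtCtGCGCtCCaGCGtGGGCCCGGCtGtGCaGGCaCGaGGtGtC
NDUFAF3: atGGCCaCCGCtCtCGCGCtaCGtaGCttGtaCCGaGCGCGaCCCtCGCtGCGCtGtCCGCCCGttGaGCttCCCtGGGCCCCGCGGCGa
NDUFB7: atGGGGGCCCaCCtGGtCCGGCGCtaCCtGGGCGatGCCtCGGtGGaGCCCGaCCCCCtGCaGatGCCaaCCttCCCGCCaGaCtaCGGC

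*NDUFA5* (chr7:123536997-123558255, minus strand), *NDUFAF4* (chr6:96889313-96897881, minus strand) and *SDHD* (chr11:112086773-112120013, plus strand) had transcripts of 36.4%, 36.4% and 41.0% GC and log2 fold changes of -0.91, -0.54 and -0.57, the lowest of their classes.
NDUFA5: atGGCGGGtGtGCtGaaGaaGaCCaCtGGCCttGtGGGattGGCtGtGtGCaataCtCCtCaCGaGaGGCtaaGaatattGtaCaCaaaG
NDUFAF4: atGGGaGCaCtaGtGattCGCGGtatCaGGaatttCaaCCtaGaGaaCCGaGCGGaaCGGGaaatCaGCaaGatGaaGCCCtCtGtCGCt
SDHD: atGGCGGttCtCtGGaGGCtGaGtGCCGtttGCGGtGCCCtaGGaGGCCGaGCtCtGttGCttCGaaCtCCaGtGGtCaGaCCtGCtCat

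*NDUFA4* (chr7:10931951-10940256, minus strand) and *COX7C* (chr5:86617904-86620962, plus strand) are shown as GC-poor transcripts (40.4% and 41.6%) with fold changes above 0. Their log2 fold changes of 0.37 and 0.30 were the highest of the respiratory chain genes in the lowest and the second GC group, where 5 of 10 and 15 of 22 genes were above 0. The printed stretches of *NDUFA4* and *COX7C* had 51.1% and 54.4% GC, above their transcripts.
NDUFA4: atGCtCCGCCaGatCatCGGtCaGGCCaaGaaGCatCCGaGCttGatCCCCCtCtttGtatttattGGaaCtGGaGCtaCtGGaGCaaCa
COX7C: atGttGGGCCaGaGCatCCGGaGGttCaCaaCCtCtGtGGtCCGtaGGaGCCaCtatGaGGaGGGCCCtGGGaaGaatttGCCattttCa

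**Figure D2:**
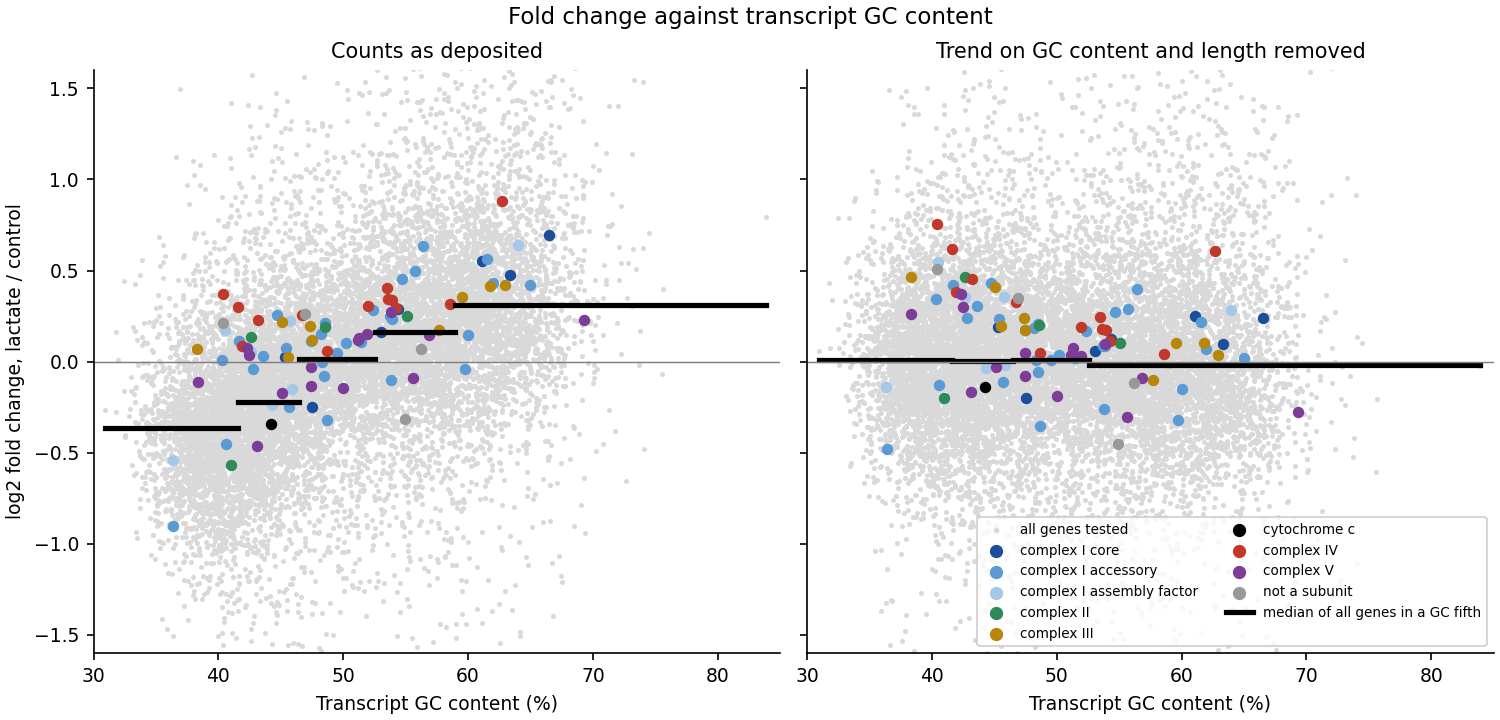
The log2 fold change of lactate over control is plotted against the GC content (%) of each gene's transcript, for all genes tested (grey) and the 90 respiratory chain genes (colored by class), from the counts as deposited (left) and after removal of the trend (right); genes beyond the vertical axis range are not drawn. The black bars, medians of all genes in 5 groups of GC content, climb from -0.37 to 0.31 on the left and lie near 0 on the right, where *NDUFA4* and *COX7C* are the highest of the colored points at low GC content.

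The smooth trend of each library on transcript GC content and length was fitted over all genes and taken out before the test. For the 90 genes this left a trend of opposite sign, with a Spearman's rho of fold change on GC content of -0.28. Their medians from the lowest to the highest GC group were then 0.30, 0.30, 0.05, 0.09 and 0.10. Calls of GC-poor genes as higher and of GC-rich genes as lower carry this limit. In that fit 6 of the 90 genes rose and 3 fell, against 23.2% of all genes tested, 11.1% higher and 12.1% lower. The genes that rose were *NDUFA4*, *COX7C*, *NDUFB4*, *ATP5C1*, *NDUFAF2* and *NDUFAF3*, and those that fell were *NDUFA5*, *NDUFB10* and *ATP5I*. On this scale the libraries did not overlap in 24 genes, 17 higher and 7 lower, against 41.4% of all genes, 20.2% higher and 21.1% lower. Of the 90 fold changes 66 were above 0, and their median was 0.11, where that of all genes was close to 0. When GC content alone was used, *NDUFA4* and *COX7C* rose and *NDUFA5* fell, with 16.4% of all genes called, 8.01% higher and 8.35% lower. Without both replicate 1 libraries and with the GC and length trend removed, 30 of the 90 genes rose and 14 fell, with 43.5% of all genes called. Per library, the median log2 deviation of the 90 genes from their means was 0.43, -0.13 and -0.09 in the lactate libraries, against 0.15, -0.09 and -0.22 in the control libraries. After removal of the trend it was 0.22, -0.09 and -0.01 in the lactate libraries, against 0.10, -0.07 and -0.17 in the control libraries. Replicate 1 remained the highest of each group on both scales.

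**Figure D3:**
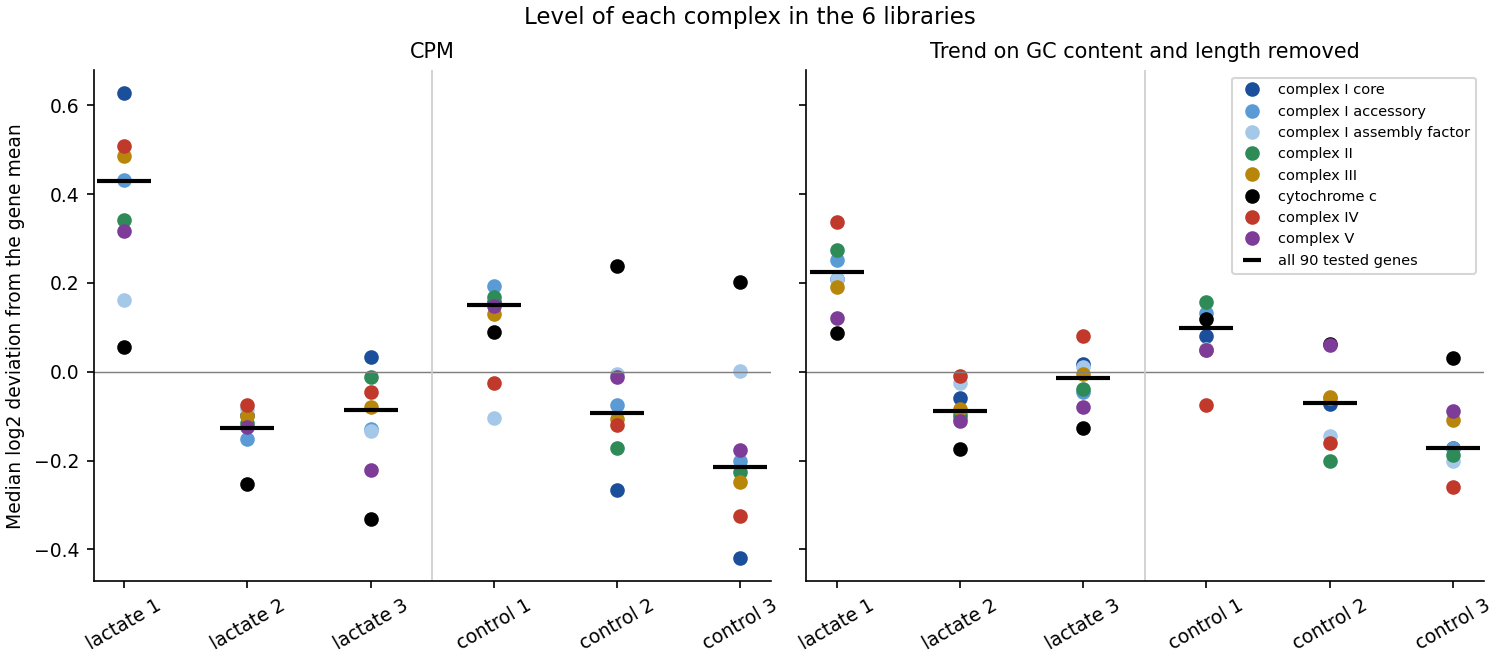
For each of the 6 libraries (lactate left of the dividing line, control right), the median log2 deviation of a class of genes from the gene means is plotted as CPM (left panel) and with the trend removed (right panel); colored points are classes and black bars all 90 tested genes. The bars of lactate replicate 1 (0.43 and 0.22) are the highest of each panel. Complex IV is below 0 in all 3 control libraries on both scales, and in lactate replicates 2 and 3 as CPM. Its CPM values are 0.51, -0.07 and -0.04 in the lactate libraries, against -0.02, -0.12 and -0.32 in the control libraries. The groups therefore overlap on that scale.

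In complex I, the entry point of electrons from NADH, 1 of the 37 subunits passed the test on the deposited counts (2.70%, against 9.43% of all genes). *NDUFA5*, an accessory subunit of the arm that reaches into the matrix, had 19.2, 22.0 and 19.1 CPM in the lactate libraries, against 27.0, 42.8 and 43.5 CPM in the control libraries (CPM, read counts scaled to a common library size with TMM). All 3 lactate libraries were below all 3 control libraries, and the log2 fold change was -0.91 (SE 0.21, adjusted p = 0.0322). With the trend removed it was -0.48 (SE 0.10, adjusted p = 0.00826), with 23.3, 23.8 and 22.4 CPM in the lactate libraries, against 30.1, 34.0 and 32.6 CPM in the control libraries. *NDUFA5* fell at an adjusted p below 0.05 in 9 of 15 alternative analyses, and lost the call without any 1 library other than control replicate 1 (adjusted p 0.0636 to 0.159) and with the total count as the only scaling (adjusted p = 0.0524).

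The 7 nuclear core subunits of complex I, which carry the flavin and the iron-sulfur clusters, had log2 fold changes of -0.25 to 0.70, and 6 of them were above 0. *NDUFV1*, which binds NADH and the flavin, had 397, 246 and 247 CPM in the lactate libraries, against 263, 181 and 162.9 CPM in the control libraries, with 1 control library above 2 lactate libraries (log2 fold change 0.55, SE 0.24, adjusted p = 0.175). *NDUFS7*, which carries the last iron-sulfur cluster before coenzyme Q, had 118, 54.4 and 61.0 CPM in the lactate libraries, against 64.1, 47.6 and 32.4 CPM in the control libraries (0.70, SE 0.33, adjusted p = 0.202). For *NDUFS8*, another iron-sulfur subunit, the values were 282, 148 and 161 CPM in the lactate libraries, against 189, 131 and 105 CPM in the control libraries (0.47, SE 0.28, adjusted p = 0.304). Their GC contents were 61.1%, 66.5% and 63.3%, and with the trend removed their log2 fold changes were 0.25, 0.24 and 0.10 (adjusted p = 0.0934, 0.229 and 0.519). The fold change of *NDUFV2*, their GC-poorer partner at the NADH site, was at -0.25 on the log2 scale (adjusted p = 0.309) and at -0.20 with the trend removed.

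Among the 30 accessory subunits of complex I, 21 had a fold change above 0. *NDUFB4* and *NDUFB10*, both of the arm that lies in the membrane, changed in opposite directions once the trend was removed. *NDUFB4* then had 115, 91.7 and 103 CPM in the lactate libraries, against 80.6, 78.5 and 70.3 CPM in the control libraries (log2 fold change 0.43, SE 0.10, adjusted p = 0.0171), and in the deposited counts its log2 fold change was 0.25 (adjusted p = 0.321). *NDUFB10* had 116, 112 and 124 CPM with the trend removed in the lactate libraries, against 153, 141 and 145 CPM in the control libraries (-0.32, SE 0.08, adjusted p = 0.019); in the deposited counts its groups overlapped and its log2 fold change was -0.04 (adjusted p = 0.917). *NDUFA3*, a small membrane subunit, had 60.9, 33.8 and 37.7 CPM in the lactate libraries, against 30.5, 31.1 and 23.5 CPM in the control libraries. Its groups did not overlap, yet it passed neither test (0.64, adjusted p = 0.124; with the trend removed 0.40, adjusted p = 0.0548). The accessory subunits with the most transcript per length, *NDUFB9* (498 RPKM in lactate, 419 in control) and *NDUFA11* (355 RPKM in lactate, 263 in control), had log2 fold changes of 0.25 and 0.43 (adjusted p = 0.5 and 0.406); RPKM is the mean CPM per kilobase of transcript.

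The 7 assembly factors of complex I are not part of the finished enzyme. *NDUFAF3* and *NDUFAF4*, which act as partners early in assembly, had fold changes of opposite sign in the deposited counts. *NDUFAF3* had 133, 90.8 and 95.8 CPM in the lactate libraries, against 78.2, 71.7 and 54.5 CPM in the control libraries. *NDUFAF4* had 13.8, 11.2 and 12.5 CPM in the lactate libraries, against 15.6, 20.8 and 18.4 CPM in the control libraries. In neither did the groups overlap. The log2 fold changes were 0.64 (SE 0.20, adjusted p = 0.0737) for *NDUFAF3* and -0.54 (SE 0.18, adjusted p = 0.0937) for *NDUFAF4*, and both passed in DESeq2 (adjusted p = 0.0346 and 0.0483), where 15% of all genes were called, 7.68% higher and 7.35% lower, and *NDUFA5* was the only other of the 90. With the trend removed *NDUFAF3* rose by 0.28 (SE 0.09, adjusted p = 0.0456), and *NDUFAF4* was at -0.14 on the log2 fold change scale (adjusted p = 0.577) with overlapping groups. *NDUFAF2*, a paralog of the accessory subunit *NDUFA12*, had 68.1, 54.1 and 62.7 CPM in the lactate libraries with the trend removed, against 48.7, 49.2 and 46.8 CPM in the control libraries (0.35, SE 0.10, adjusted p = 0.0336). In the deposited counts its groups overlapped (0.23, adjusted p = 0.393).

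None of the 4 genes of complex II, which is also the succinate dehydrogenase of the citric acid cycle, passed either test. The catalytic flavoprotein *SDHA* had 511, 379 and 411 CPM in the lactate libraries, against 470, 311 and 312 CPM in the control libraries, and its log2 fold change was 0.25 (adjusted p = 0.431). The iron-sulfur protein *SDHB* (0.19, adjusted p = 0.572) and the membrane anchor *SDHC* (0.13, adjusted p = 0.619) lay close to it. The other anchor, *SDHD*, lay on the other side of 0, with 68.2, 77.4 and 66.5 CPM in the lactate libraries, against 74.0, 119 and 122 CPM in the control libraries. Control replicate 1 was inside the lactate range for *SDHD*, and the log2 fold change was -0.57 (SE 0.20, adjusted p = 0.106), or -0.20 with the trend removed (adjusted p = 0.174). Without control replicate 1, *SDHD* fell by 0.77 on the log2 scale (adjusted p = 0.0105), with 23.1% of all genes called.

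In complex III, which passes electrons from coenzyme Q to cytochrome c, 9 of 9 genes had a fold change above 0 (0.03 to 0.42) and none passed the test. *CYC1*, the cytochrome that hands electrons on, had 503, 356 and 388 CPM in the lactate libraries, against 389, 295 and 253 CPM in the control libraries (0.41, SE 0.20, adjusted p = 0.207). *UQCR11*, a small accessory subunit, had 174, 92.5 and 95.6 CPM in the lactate libraries, against 116, 83.8 and 71.3 CPM in the control libraries (0.42, SE 0.27, adjusted p = 0.343). Their transcripts had 61.8% and 62.9% GC, and with the trend removed the log2 fold changes were 0.10 and 0.04. The hinge protein *UQCRH* had 326 RPKM in lactate and 284 in control (0.20, adjusted p = 0.544). *CYCS*, cytochrome c itself, stood on the other side of 0, with 143, 115 and 109 CPM in the lactate libraries, against 146, 162 and 158 CPM in the control libraries. Its groups did not overlap, although lactate replicate 1 and control replicate 1 differed little (log2 fold change -0.34, SE 0.15, adjusted p = 0.171). After the correction the groups of *CYCS* overlapped and the value was -0.14 (adjusted p = 0.3).

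Complex IV, the cytochrome c oxidase, had fold changes on one side of 0 in both fits. All 13 tested genes had a log2 fold change above 0, from 0.06 to 0.88 in the deposited counts and from 0.04 to 0.76 with the trend removed. The median of complex IV was above 0 in each of the 15 alternative analyses, at 0.08 (without lactate replicate 1) to 0.41 (without lactate replicate 3), and so were those of complex III and the complex I core. With the GC and length trend taken out, its median was 0.24, next to 0.28 in the complex I assembly factors, 0.17 in complex III, 0.15 in complex II and 0.12 in the complex I core. No complex IV gene passed the test on the deposited counts, against 9.43% of all genes. With the trend removed 2 of 13 rose (15.4%), near the 11.1% of all genes that rose.

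*NDUFA4* and *COX7C* were those 2. *NDUFA4* carries a complex I symbol but its protein is a subunit of complex IV, and it had 167, 133 and 137 CPM in the lactate libraries, against 97.4, 127 and 114 CPM in the control libraries. The groups did not overlap, and the log2 fold change was 0.37 (SE 0.16, adjusted p = 0.169). Once the trend was removed *NDUFA4* had 208, 138 and 156 CPM in the lactate libraries, against 107, 103 and 87.6 CPM in the control libraries (0.76, SE 0.15, adjusted p = 0.00816). *COX7C*, a small membrane subunit, had 267, 215 and 209 CPM in the lactate libraries, against 159, 210 and 193 CPM in the control libraries, which overlapped by 1 library (0.30, SE 0.16, adjusted p = 0.262). With the trend removed the groups of *COX7C* separated, at 287, 230 and 252 CPM in the lactate libraries, against 169, 173 and 158 CPM in the control libraries (0.62, SE 0.10, adjusted p = 0.00279). Both calls were also made with GC content alone, with the longest transcript of each gene, and, with the trend removed, without both replicate 1 libraries.

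The paralog of *NDUFA4*, *NDUFA4L2*, known as a gene induced by low oxygen, was scarce. It had 2.21, 2.44 and 2.09 CPM in the lactate libraries, against 1.47, 1.29 and 0.866 CPM in the control libraries, and its groups did not overlap (0.88, SE 0.30, adjusted p = 0.0909). Of the other subunits with tissue isoforms, *COX4I1* had the most transcript per length in complex IV (561 RPKM in lactate, 444 in control) and differed by 0.34 on the log2 scale (adjusted p = 0.436). *COX8A* (433 RPKM in lactate, 347 in control) had 0.32 (adjusted p = 0.29). *COX6A1* (0.41, adjusted p = 0.214), *COX6B1* (0.34, adjusted p = 0.342) and *COX7A2* (0.26, adjusted p = 0.482), the widely expressed forms of their subunits, lay in the same range. The heart and muscle forms *COX6A2* and *COX7A1* and the second form of subunit 4, *COX4I2*, were not analysed here, and *COX6B2*, the testis form, had 1 to 6 counts a library.

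Complex V had the fold changes nearest to 0: 8 of 15 genes were above 0 and 7 below. *ATP5B*, the catalytic subunit with the most transcript per length of all 90 genes, had 1826, 1345 and 1441 CPM in the lactate libraries, against 1727, 1267 and 1219 CPM in the control libraries (0.13, SE 0.18, adjusted p = 0.67). *ATP5C1*, the shaft that turns inside the catalytic head, had 170, 159 and 153 CPM in the lactate libraries, against 139, 165 and 154 CPM in the control libraries (0.07, adjusted p = 0.745). Its level rose with the trend removed, at 186, 169 and 180 CPM in the lactate libraries, against 146, 139 and 128 CPM in the control libraries (0.37, SE 0.08, adjusted p = 0.0127). *ATP5I*, a membrane subunit at the contact between 2 enzymes of a dimer, fell with the trend removed, with 59.4, 54.8 and 55.0 CPM in the lactate libraries, against 64.6, 72.6 and 71.8 CPM in the control libraries (-0.30, SE 0.09, adjusted p = 0.0343). In the deposited counts *ATP5I* was at -0.09 on that scale and its groups overlapped (adjusted p = 0.783).

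The stalk subunit *ATP5F1* had 119, 132 and 113 CPM in the lactate libraries, against 118, 198 and 186 CPM in the control libraries. Control replicate 1 lay among the lactate libraries, and the log2 fold change was -0.46 (SE 0.20, adjusted p = 0.171). Without control replicate 1 it fell by 0.66 (adjusted p = 0.014). The neighboring stalk subunit *ATP5H* was at -0.17 (adjusted p = 0.588). *ATP5G1*, *ATP5G2* and *ATP5G3* encode the same mature ring protein, and had log2 fold changes of 0.27, 0.15 and 0.15 (adjusted p = 0.42, 0.684 and 0.704), with 116, 321 and 298 RPKM in lactate and 96.0, 289 and 269 RPKM in control. *ATP5E*, a small subunit of the same shaft as *ATP5C1*, was counted at only 0.745 to 1.47 CPM in the lactate libraries and 0.787 to 1.57 CPM in the control libraries, far below its partners.

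**Figure D4:**
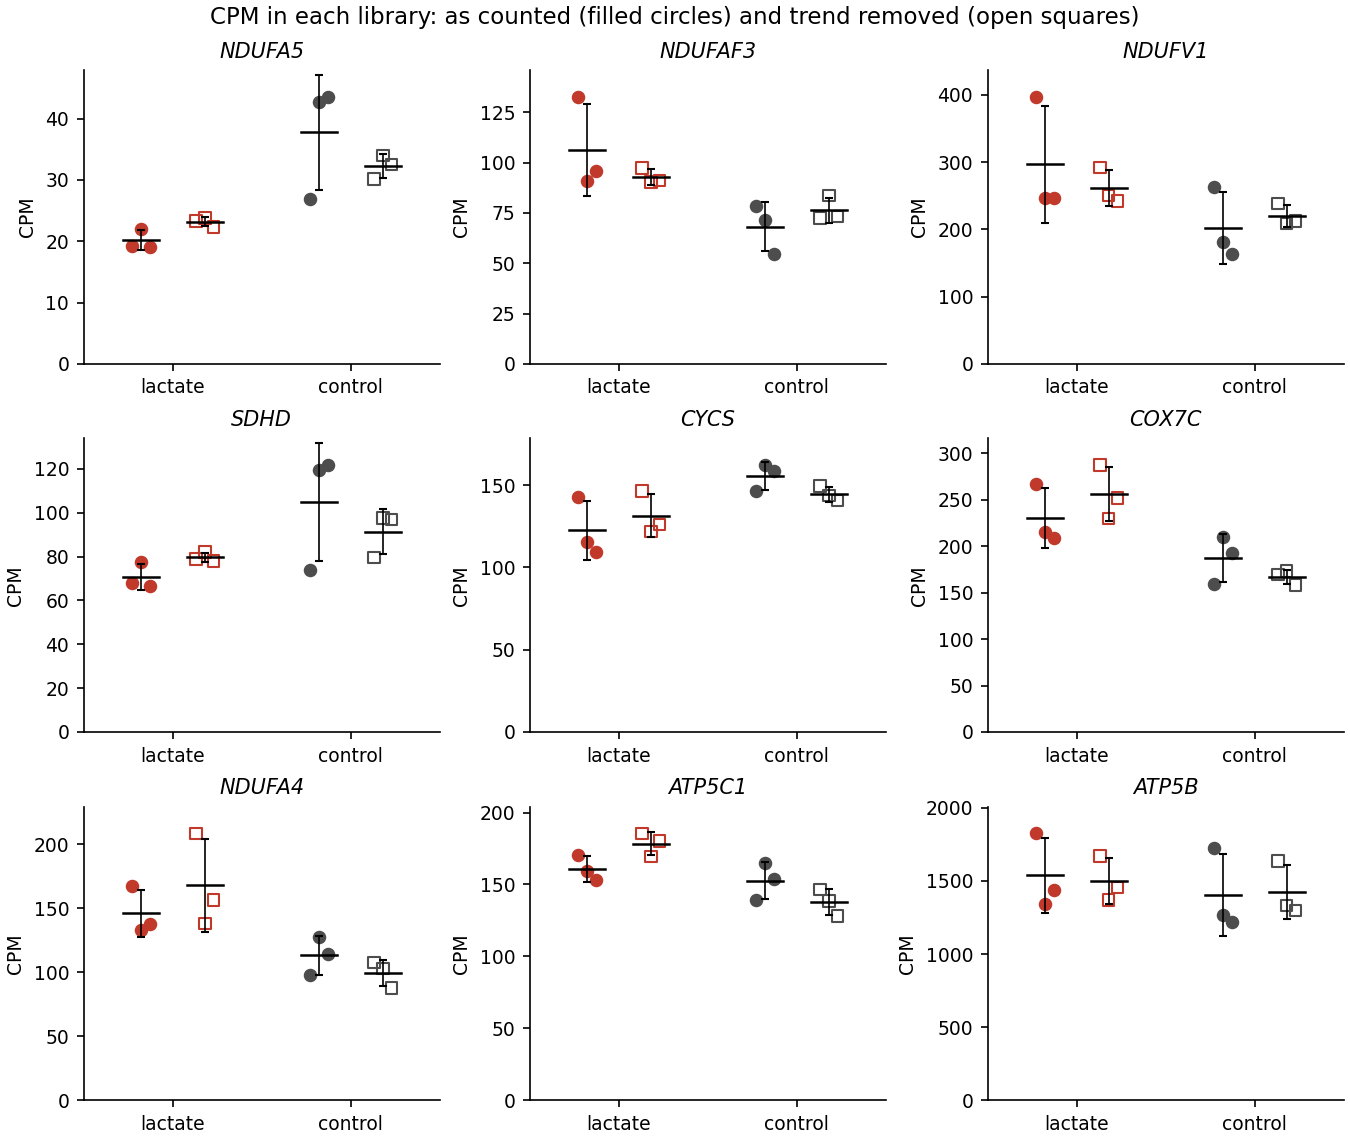
CPM in each library for 9 genes, lactate left of control, as counted (filled circles) and with the trend removed (open squares); bars are means and whiskers 1 SD (n = 3 libraries a group), and each vertical axis starts at 0. The 3 lactate libraries of *NDUFA5* lie below the control libraries on both scales, and the groups of *NDUFV1*, *COX7C* and *ATP5C1* separate only on the trend-removed scale.

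Within a library, transcripts of complex IV can be set against those of complex V, a ratio that does not depend on the scaling between libraries. Summed over their genes, there were 58.2, 50.9 and 51.9 CPM of complex IV per 100 CPM of complex V in the lactate libraries, against 44.5, 47.6 and 45.6 in the control libraries. The means were 53.7 ± 3.99 in lactate and 45.9 ± 1.52 in control (SD, n = 3 each). The groups did not overlap, and the 2 replicate 1 libraries, which stood apart on most measures, lay at the outer edge of each group. After the correction the values were 56.3, 51.9 and 54.5 in lactate, against 44.6, 46.7 and 45.6 in control. For the complex I subunits the corresponding values were 111, 95.7 and 96.9 in lactate, against 94.5, 90.9 and 87.9 in control, and 101, 95.9 and 96.6 in lactate against 93.1, 94.0 and 93.7 in control with the trend removed. These ratios were computed after the values by complex had been seen and carry no test. They are ratios of reads and not of molecules, since longer transcripts give more reads.

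**Figure D5:**
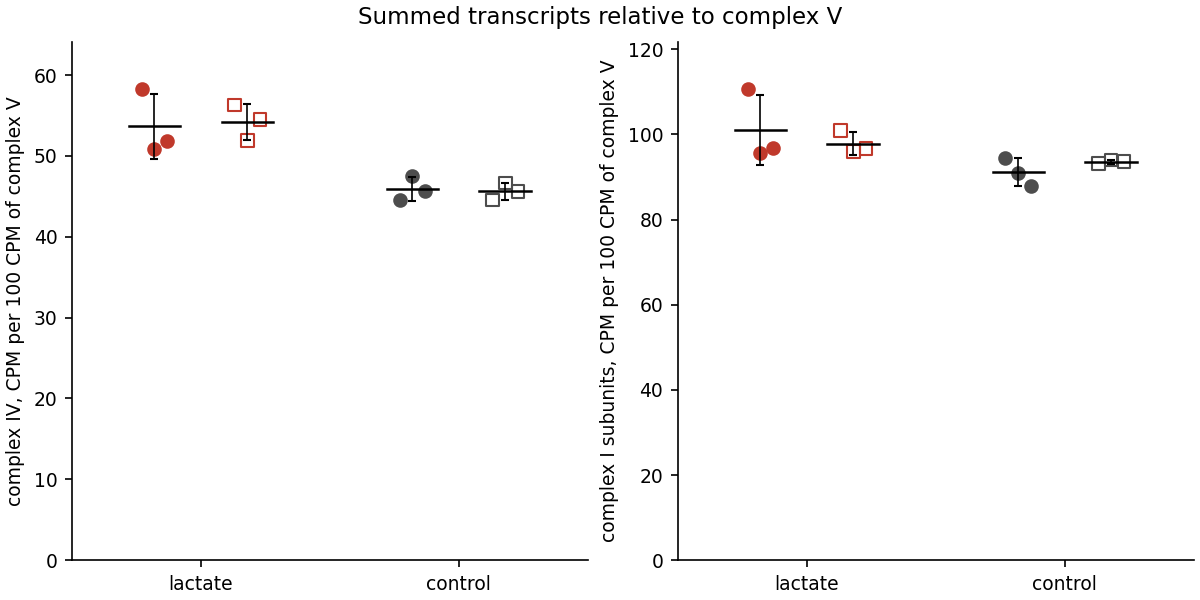
The summed CPM of complex IV (left) and of the complex I subunits (right) per 100 CPM of complex V in each library, lactate left of control, as counted (filled circles) and with the trend removed (open squares); bars are means and whiskers 1 SD (n = 3 libraries a group). The 3 lactate libraries lie above the 3 control libraries in every column, in complex IV at 50.9 to 58.2 against 44.5 to 47.6 as counted.

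Other genes needed to build the chain were described from lists. Beside the counts that follow stand 9.43% of all genes called on the deposited counts and 23.2% with the trend removed. Of 42 further assembly factors of complexes I to V, 1 passed the test: *COX20*, which guides a mitochondrially made core subunit of complex IV during assembly, had 6.47, 8.73 and 8.72 CPM in the lactate libraries, against 18.4, 22.9 and 23.7 CPM in the control libraries. It fell by 1.44 on the log2 scale (SE 0.20, adjusted p = 0.00559), and by 1.15 with the trend removed (adjusted p = 3.36e-04). *COX20* was therefore counted at less than its lowest control value in every lactate library, while the complex IV subunits had fold changes above 0. Among 13 genes of coenzyme Q synthesis *PDSS1*, which makes the side chain, fell (-0.95, SE 0.24, adjusted p = 0.041). With the trend removed 3 of the 42 assembly factors passed (7.14%), 1 higher and 2 lower. In that fit 5 of the 13 coenzyme Q genes passed (38.5%), 2 higher and 3 lower.

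The 15 genes of mitochondrial transcription and replication had a median log2 fold change of -0.49, or -0.14 with the trend removed, and a median GC content of 42.7%. *TFAM*, which packages mitochondrial DNA and starts its transcription, had 44.6, 57.5 and 50.8 CPM in the lactate libraries, against 80.8, 98.3 and 103 CPM in the control libraries (-0.88, SE 0.16, adjusted p = 0.0153; with the trend removed -0.51, adjusted p = 0.0172). *TEFM*, an elongation factor of mitochondrial transcription, fell by 1.30 (adjusted p = 0.0313). *TFB1M*, which modifies the RNA of the small mitochondrial ribosomal subunit, rose, with 24.8, 26.1 and 25.5 CPM in the lactate libraries, against 11.6, 14.9 and 15.1 CPM in the control libraries (0.88, SE 0.17, adjusted p = 0.0188). *POLRMT* (0.40, adjusted p = 0.0281) and *POLG* (0.285, adjusted p = 0.0327) rose with the trend removed, and passed in that fit only. Whether transcripts made inside mitochondria changed could not be measured in this table.

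Of 14 tested regulators of mitochondrial biogenesis *PPARA*, a nuclear receptor of fatty acid oxidation, rose (1.01, SE 0.23, adjusted p = 0.0295), and 13 did not pass. That is 7.14% of the list, against 9.43% of all genes. With the trend removed 3 of the 14 passed (21.4%), against 23.2% of all genes. Among 78 mitochondrial ribosomal protein genes *MRPL35* fell (-0.53, adjusted p = 0.0465; with the trend removed -0.17, adjusted p = 0.423) and the median log2 fold change was 0.06. With the trend removed 7 of the 78 passed (8.97%), 3 higher and 4 lower. None of 81 cytosolic ribosomal protein genes passed, although their median was 0.28, with a median GC content of 49.6%, and 9 of them (11.1%) rose with the trend removed (median 0.17), the same share as the 11.1% of all genes. None of 7 tested enzymes that bring electrons to coenzyme Q by other routes passed the test on the deposited counts either. With the trend removed 1 of the 7 did, *DHODH*, which rose by 0.45 (adjusted p = 0.0192). The respiratory chain median of 0.15 lay between the medians of the mitochondrial and the cytosolic ribosomal proteins.

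Short sequence motifs were counted in the promoters. Promoter windows (250 bases before to 50 after the start, RefSeq, GRCh38.p14) were matched for 66 of the 93 genes. The site of NRF1, a regulator long tied to respiratory genes, was searched on both strands with its middle base left free and was present in 16 of the 66 (24.2%), against 6.29% of 27305 promoters. On both strands, the core of the ETS factor site, CCGGAAG, was present in 19 (28.8%, against 10.7% of promoters), and the YY1 site, AAGATGG, in 13 (19.7%, against 6.06%). Of the 9 genes called with the trend removed, *NDUFB4*, *ATP5C1* and *ATP5I* had the NRF1 site, and these include 2 that rose and 1 that fell. *NDUFB4* had NRF1 matches at -159, -63 and -8 from the RefSeq start, of which only that at -63 lies in the bases printed below. The promoters of the genes that rose are printed for the 120 bases before the annotated transcript start, plus strand, with the NRF1 match in capitals (that of *NDUFB4* reads as the site on the other strand): *NDUFB4*, chr3:120596189-120596308, and *ATP5C1*, chr10:7788057-7788176.
NDUFB4: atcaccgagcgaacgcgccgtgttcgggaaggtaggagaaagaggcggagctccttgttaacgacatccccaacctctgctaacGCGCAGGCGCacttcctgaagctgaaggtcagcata
ATP5C1: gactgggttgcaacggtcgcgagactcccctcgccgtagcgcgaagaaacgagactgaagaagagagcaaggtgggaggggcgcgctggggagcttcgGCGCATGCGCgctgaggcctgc

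Some values rest on reads that may not belong to 1 gene alone. Exons of 24 of the 93 genes overlap another annotated gene on the same strand and those of 38 overlap one on the other strand, among them *SDHD* with *TIMM8B*, *NDUFAF3* with *DALRD3*, *ATP5F1* with *WDR77* and *ATP5I* with *MYL5*. The pairs just named lie on opposite strands, whereas *COX7C* overlaps *AC108110.1* on the same strand. *NDUFA5*, *NDUFA4* and *NDUFB4* had no overlap on either strand. *NDUFB2* and its antisense RNA *NDUFB2-AS1* had log2 fold changes of 0.00 and -0.32, which cannot be told apart without knowing whether the counting used strand. *UQCRH* and its retrocopy *UQCRHL* are near identical, and *CYCS*, *SDHD*, *COX7C* and *NDUFB4* are known to have processed pseudogenes, so that how their reads were shared out is uncertain.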

How the data were processed

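Poly(A) RNA was sequenced from 6 directional libraries per the labels. The series text calls the 3 of each group biological replicates, without saying what separated them, so that p-values measure the spread between these libraries. For each gene the authors deposited raw counts, made with the aligner STAR on hg38 per the submitters' processing notes, with versions and use of strand not given in the sources used here. All columns were used. Counts were analyzed with edgeR 4.0.16 (R 4.3.3): filterByExpr, TMM scaling, two-sided quasi-likelihood F test, Benjamini-Hochberg adjusted p-values (13188 genes) and a cutoff of 0.05. GC content and length were those of a principal transcript in GENCODE release 29, matched for 15269 genes (95.9%). For the trend-removed fit, a natural spline (5 degrees of freedom) on GC content and log length was fitted in each library over 12798 genes and used as an offset. DESeq2 1.42.0, other scalings and filters, and fits without single libraries were alternatives. The fit was tested on simulated data. Genes named are those called in either edgeR fit, the 2 largest changes and 2 highest levels per length of each class, the isoforms, *CYC1*, *CYCS* and the SDH genes, and at most 4 called genes of each other list. *NDUFB7*, *NDUFV2*, *ATP5E*, *NDUFB2*, *NDUFB2-AS1*, *POLRMT*, *POLG* and *DHODH* were added after their values were seen. The genes and lists were chosen with earlier results of these data known. The precision of a level covers counting error and the spread of 3 libraries a group.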

Additional observations from a re-analysis of the deposited data

How the results depend on the processing

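No paired analysis was possible because the labels give no replicate numbers that link lactate and control libraries. The counts of genes that rose and fell (0 and 1) were the same with DESeq2 size factors and without a filter on low counts. They were 0 and 0 with total library size, 1 and 2 with DESeq2, 2 and 1 with the GC trend removed, 6 and 3 with the GC and length trend removed, and 9 and 2 with the longest transcript of each gene, where 22.2% of all genes passed. Leaving out 1 library gave 0 to 4 genes higher and 0 to 4 lower, with 4 and 4 without control replicate 1 and 0 and 0 without any other. Without both replicate 1 libraries 17 rose and 13 fell (47.4% of all genes called), and 30 rose and 14 fell with the trend removed as well (43.5%); 2 libraries a group then set the spread. The fits with the longest transcript, and without both replicate 1 libraries with the trend removed, were chosen after seeing the data.

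The difference in median log2 fold change between the highest and the lowest GC group was 0.68 over all genes and 0.48 over the respiratory chain genes. With the GC trend removed it became -0.023 and -0.20, and with GC and length -0.025 and -0.21. It was 0.014 and -0.12 with the longest transcript, and -0.029 and -0.23 without both replicate 1 libraries and with the trend removed. By construction of the correction only the values over all genes lie near 0. In the respiratory chain genes the trend turned negative, with a Spearman's rho of -0.28 on GC content after removal of GC and length. Leaving out 1 library gave 0.43 to 1.00 over all genes and 0.26 to 0.79 over the respiratory chain genes. The medians by class were below 0 without lactate replicate 1 for all 90 genes (-0.030), the accessory subunits (-0.11), complex II (-0.014) and complex V (-0.15), and complex V was at -0.067 without control replicate 3. Without both replicate 1 libraries, the accessory subunits were at -0.019 and complex V at -0.033, and complex V was at -0.041 with the trend removed as well.

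Single genes turned direction, and the cause was not tested. Leaving out lactate replicate 1 turned 8 of them below 0, each the low end of its range over the libraries left out: *ATP5B* (-0.012 to 0.31), *ATP5G2* (-0.12 to 0.29), *ATP5G3* (-0.17 to 0.29), *COX7A2* (-0.038 to 0.40), *NDUFA11* (-0.0089 to 0.71), *NDUFB9* (-0.041 to 0.41), *SDHB* (-0.031 to 0.35) and *UQCRH* (-0.029 to 0.33). *NDUFB10* (-0.25 to 0.16) was above 0 without control replicate 1, lactate replicate 2 or lactate replicate 3, and *ATP5I* (-0.30 to 0.012) without lactate replicate 2 or 3. *ATP5G2* was at -0.066 with the GC trend and -0.090 with the GC and length trend removed, and *ATP5H* at 0.0036 with the GC trend removed. *ATP5C1* (-0.033 to 0.13) and *ATP5G3* (-0.03) were below 0 without both replicate 1 libraries. With the trend removed as well, *ATP5G1* was at -0.041, *ATP5G2* at -0.16, *ATP5G3* at -0.079, *ATP5H* at 0.054, *COX8A* at -0.031, *NDUFA11* at -0.0039 and *UQCR11* at -0.029. Of the other values of named genes under the alternatives, 445 kept their direction and side of the threshold, 64 newly passed it and 6 no longer did. *NDUFA4L2* and *ATP5E* had the lowest levels among the genes named from complexes IV and V and rest on few counts.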
